A study of Mus musculus with 8 samples.

Results

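The features described here are the spots of a mouse array that carry no gene symbol and are named instead by an interval and a strand of the mm9 genome, such as chr8:125031410-125075960_F, where F is the forward and R the reverse strand. The array design holds 16181 such non-control probes. After 6 with outlier flags were dropped, 16175 probes of 4607 features were left. Kept were probes that the scanner software marked as well above background on 4 or more of the 8 arrays. This left 4260 probes of 2249 features, among 27131 kept probes and 19748 genes and features of the whole array.

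The 8 arrays came from the cortex of 8 male C57BL/6NCr pups at postnatal day 1.5, 4 called control and 4 called ischemia. In the ischemia group the blood supply of the uterus had been clamped for 14 min, with the mother anesthetised, at embryonic day E16.5. The sources used here do not say whether control mothers had an operation without clamping, or which pups were litter mates. The comparison asks how cortical gene expression differed between these pups after birth.

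Long intergenic noncoding RNAs (lincRNAs) are transcripts that are spliced and polyadenylated like messenger RNAs but lie between protein-coding genes and code for no known protein. They are known for low and tissue-restricted expression, and the brain expresses many of them. Some act on chromatin, some host small RNAs, and for most no function is known. Arrays of this design include intervals proposed as lincRNAs, often with probes on both strands because the transcribed strand was not known.

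The 60-base probes that carry the values are shown first for 9 of the features with the smallest p in either direction, printed 5′ to 3′ as the array design gives them. None of these 9 passed the adjusted test described below. The feature chr11:120046656-120050065_F was detected in controls alone, so it was kept only through the group where it was high. The first 4 had lower values in ischemia and the next 5 higher values. Capitals mark the polyadenylation hexamer AATAAA or its variant ATTAAA, searched on the strand of the probe alone.
chr8:125031410-125075960_F: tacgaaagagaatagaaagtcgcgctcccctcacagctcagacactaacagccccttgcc
chr12:110944403-110988678_F: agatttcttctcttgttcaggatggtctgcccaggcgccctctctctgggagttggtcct
chr5:149947200-149979950_F: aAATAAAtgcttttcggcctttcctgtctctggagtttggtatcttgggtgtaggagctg
chr11:120046656-120050065_F: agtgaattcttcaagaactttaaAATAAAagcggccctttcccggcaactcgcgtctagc
chr17:95150800-95180650_R: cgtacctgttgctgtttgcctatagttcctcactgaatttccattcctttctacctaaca
chr1:134237581-134248506_R: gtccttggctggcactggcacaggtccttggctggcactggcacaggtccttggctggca
chr14:26973425-26986650_F: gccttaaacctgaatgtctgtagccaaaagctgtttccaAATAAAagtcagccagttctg
chr7:71093563-71095094_F: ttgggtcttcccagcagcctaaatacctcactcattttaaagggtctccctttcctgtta
chr4:124127144-124334840_R: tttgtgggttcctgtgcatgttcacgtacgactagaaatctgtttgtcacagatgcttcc

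Either hexamer occurred in 6.28% of all position-named probes and in 6.36% of the kept ones, against 16.7% of the other probes of the array. The probe of chr1:134237581-134248506_R repeats the same stretch of bases along its length.

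The brightest position-named features had probes of another kind. Of the 8 with the highest mean signal, 6 had probes with at least 65% G and C and at least 35% C. Shown are 2 of these 6 and then the 2 without that composition, where capitals mark runs of at least 4 C.
chr14:78924115-78938125_F: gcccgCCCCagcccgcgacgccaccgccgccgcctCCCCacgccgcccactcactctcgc
chr12:73838608-73862621_R: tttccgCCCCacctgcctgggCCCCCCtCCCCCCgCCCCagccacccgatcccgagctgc
chr11:22681800-22707775_R: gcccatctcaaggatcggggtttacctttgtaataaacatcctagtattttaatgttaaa
chr7:108209996-108216032_R: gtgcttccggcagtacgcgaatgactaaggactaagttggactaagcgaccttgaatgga

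A run CCCC stood in 23.1% of the probes that represent the kept features, in 11.9% of all position-named probes and in 10.3% of the other probes. Brightness depends on the probe as well as on the RNA. Where features are picked or grouped by signal here, this does not rank the amounts of their RNA.

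The features spread over all autosomes and the X chromosome and over both strands. The share kept lay between 38.3% on chromosome 18 and 56.6% on chromosome 19, and was 48.8% over all features. On the forward strand 1124 of 2318 features were kept, on the reverse strand 1125 of 2289. The intervals of kept features were 90 to 533972 bp long, with a median of 12101 bp, against 9059 bp for features that were not kept. Of the 2249, 759 overlapped another kept feature on the same strand, so features are not independent of each other.

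Position-named probes were detected less often than the rest of the array: 26.3% were kept, against 57.9% of the other probes. Of the kept features, 1818 had a probe well above background on all 8 arrays and 431 had at best 4 to 7. A further 1526 of the 4607 features were not well above background on any array. At the threshold, 239 probes were detected on exactly 4 arrays with a median signal of 29.9, and 258 on exactly 3 with a median signal of 26.5. Along the interval, divided into 5 equal parts from 5′ to 3′, the share of probes kept was 30.5%, 27.2%, 26.1%, 24.2% and 25.6%.

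The number of position-named probes well above background was 4440, 4145, 4229 and 4377 on the control arrays and 3845, 4765, 4351 and 4416 on the ischemia arrays. The means were 4298 ± 135 and 4344 ± 379 (SD, n = 4 each). The lowest and the highest array were both in the ischemia group, and the groups overlapped (two-sided exact permutation test, p = 0.857, where 0.0286 is the smallest p that 4 against 4 arrays allow).

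Whether the intervals lie between genes was looked at only through the array's own probes of named genes. An interval without such a probe can still lie over part of a gene. Of the 2249 kept, 1743 had no probe of a named gene inside the interval, and 449 had none within 50 kb. The other 506 (22.5%, against 14.9% of the features not kept) had a named gene's probe inside, 330 of the 506 on the same strand. In 149 features such a same-strand probe belonged to a protein-coding gene, and in 160 to a named long noncoding RNA. Exon and UTR status was not analysed here for want of an mm9 annotation, and distances are measured to the nearest probe of a named gene rather than to its ends.

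Levels are given as log2 of the processed signal minus log2 of the array's 75th percentile, so that 0 is that percentile. Each feature is represented by its kept probe with the highest mean, and the groups were compared with limma, a linear model fitted to all genes and features at once. The array's 75th percentile was 348, 306, 320 and 391 signal units in controls 1 to 4 and 359, 365, 379 and 393 in ischemia 1 to 4. Neuronal and glial markers (Tubb3, Neurod6, Bcl11b, Tbr1, Fabp7, Slc1a3, Olig2) were well above background on all 8 arrays. Of 25 cell type markers listed, 3 did not overlap between the groups, 2 lower and 1 higher in ischemia. Over everything tested, 4.28% lay apart with ischemia lower and 2.27% with ischemia higher. So few markers allow no comparison with those shares. The lower ones were the neuronal tubulin gene Tubb3 (7.36 to 7.52 in ischemia, 7.52 to 7.65 in controls, apart before rounding) and the radial glia gene Fabp7 (7.18 to 7.37 and 7.49 to 7.56). The higher one was the microglial complement gene C1qa (0.29 to 0.60 and -0.08 to 0.27). The choroid plexus marker Ttr, a thyroid hormone carrier, had a log2 level of 6.76 in ischemia 4 and between -4.31 and -1.90 on the other arrays, and the summed level of the 6 choroid plexus markers was 6.83 there and -0.35 to -0.06 elsewhere. Summed over 5 meningeal markers the level was 3.86 and 3.84 in ischemia 1 and 4, and 1.40 to 2.06 on the others. In ischemia 4 this rested on Ptgds (3.48), while Dcn (0.49) and Col1a2 (0.32) were below their values in control 4 (0.52 and 0.44). The part of these cell types in the values below was not tested. All 8 arrays lay on 1 slide, controls in its first row and ischemia in its second, so slide row and group cannot be told apart.

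Position-named features were on balance lower in ischemia, by a small amount. Their median log2 difference (ischemia minus control) was -0.10, with quartiles of -0.22 and 0.02, and 1606 of 2249 (71.4%) were below 0. Over all 19748 genes and features tested the median was -0.02 and 57% were below 0. Protein-coding genes had a median of -0.00 (n = 13694). Named long noncoding RNA genes had -0.09 (n = 486), and transcripts without a RefSeq name had -0.05 (n = 3042).

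**Figure D1:**
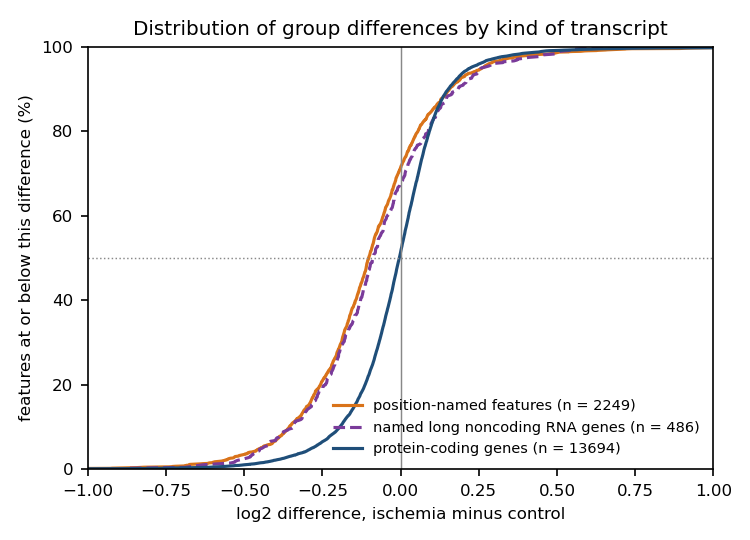
Cumulative share (%) of features or genes at or below each log2 difference, ischemia minus control, for the position-named features, named long noncoding RNA genes and protein-coding genes. The curve of the 2249 position-named features lies left of that of the 13694 protein-coding genes, with medians of -0.10 and -0.00, and close to that of the 486 named long noncoding RNA genes.

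A single position-named feature passed the limma test after Benjamini-Hochberg adjustment over all 19748 genes and features, and it was lower in ischemia; it was also the only one called on the array (0.00506% of those tested). None was higher (0% called). At unadjusted p under 0.05 in limma, 348 features (15.5%) were lower and 42 (1.87%) higher, where the array as a whole had 7.64% lower and 3.25% higher. The groups did not overlap for 165 features lower (7.34%) and for 12 higher (0.53%), against 4.28% and 2.27% over everything tested. In bulk tissue, fewer cells of a type and less RNA per cell cannot be told apart.

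The 8 arrays did not separate cleanly by group in this shift. As a deviation from the control mean, the median over position-named features was 0.05, 0.02, 0.05 and -0.12 in controls 1 to 4. In ischemia 1 to 4 it was -0.08, -0.08, -0.10 and -0.13. Control 4 lay among the ischemia arrays. It was also brighter than the other controls, with a 75th percentile of 391 against 306 to 348, next to ischemia 4 with 393. With the array's 75th percentile as a covariate in limma, a fit added after seeing the data, the median was -0.05, and at unadjusted p under 0.05 178 features were lower and 60 higher. The 178 were 7.91% of the features, where 4.81% of the whole array was lower in that fit. Without control 4 the median was -0.14 and 457 were lower (20.3%, against 8.94% of the whole array).

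**Figure D2:**
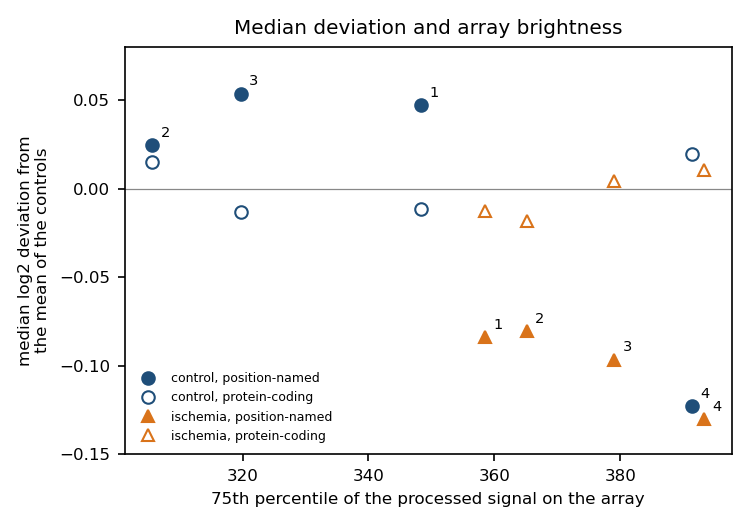
Median log2 deviation from the control mean (vertical) against the array's 75th percentile of the processed signal (horizontal), 1 point per array and transcript kind, with replicate numbers beside the position-named medians. The position-named medians of control 4 (-0.12) and ischemia 4 (-0.13), the 2 brightest arrays, lie together at the bottom, while the protein-coding medians stay between -0.02 and 0.02 on every array.

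More features were called lower among brighter probes and among probes rich in C. Among position-named features with a mean log2 level under -3, 7.54% were lower at unadjusted p under 0.05, and the share was 10.6%, 16.6% and 22.5% in the next ranges and 29.1% above a level of 2. The median difference over these ranges was -0.08, -0.11, -0.10, -0.11 and -0.12. In protein-coding genes it went from 9.05% to 4.98% over the same ranges. With under 15% C in the probe, 8.42% of position-named features were lower and their median difference was -0.06 (n = 202). With at least 35% C, 29.1% were lower and the median was -0.17 (n = 299). Protein-coding genes had 3.91% and 13.0% lower in these C classes. Where G and C together made up at least 65% of the probe, the medians were close, -0.21 in 103 position-named features and -0.20 in 30 protein-coding genes. In larger classes they were further apart. With 55 to 65% G and C they were -0.13 (n = 451) and -0.03 (n = 1136). With 45 to 55% they were -0.10 (n = 943) and -0.01 (n = 4219). In protein-coding genes with at least 35% C the median was -0.05 (n = 307).

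**Figure D3:**
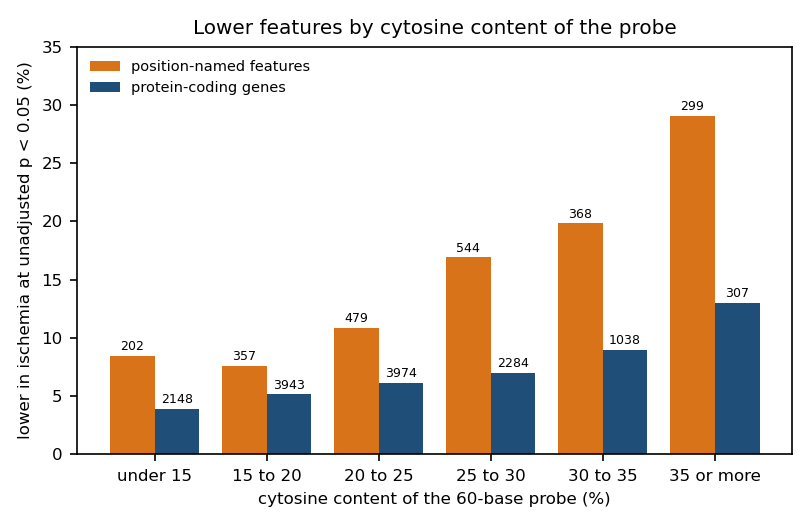
Share of features (%) lower in ischemia at unadjusted p under 0.05 in limma, by cytosine content of the 60-base probe (%), with the number of features above each bar. In position-named features (orange) the bars go from 8.42% below 15% C to 29.1% at 35% C or more, in protein-coding genes (blue) from 3.91% to 13.0%.

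The base content of the probes moved with the result. The median C content was 25% over the 2249 features, 28.3% in the 348 lower ones and 20% in protein-coding genes. After each array was centred within classes of G and C content, a step added after seeing the data, the median difference was -0.07, with 275 features lower and 53 higher at unadjusted p under 0.05. The 275 were 12.2% of the features, where 6.25% of the whole array was lower in that fit.

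The feature that passed the adjusted test was chr18:63525907-63526504_R, a 598 bp interval with 1 kept probe of 3. Its log2 levels were -2.82, -2.82, -2.73 and -2.74 in controls 1 to 4 and -3.52, -3.45, -3.44 and -3.62 in ischemia 1 to 4. Every ischemia array lay below every control. The means were -2.78 ± 0.05 and -3.51 ± 0.08 (SD, n = 4 each), and the difference was -0.73 (SE 0.06, adjusted p = 0.0336 in limma). The probe was dim, with a mean signal of 41.4, and was well above background on 7 arrays. The nearest probe of a named gene, 256 kb away, belonged to Piezo2, a mechanically gated ion channel. Of 20 alternatives that gave it a value, 3 kept it under the adjusted threshold of 0.05 and 17 did not, among them the 8 fits that left out an array (adjusted p = 0.0515 to 0.246 in limma). The difference was -0.37 with normexp and between -0.75 and -0.69 in the other 19.

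None of the other 9 among the 10 lower features of smallest p passed the adjusted test, and 1 of them is not reported here. The largest difference among them was at chrX:45814752-45816313_R, which overlaps Elf4, a transcription factor of the ETS family. Its control levels were 0.44, 0.22, 0.10 and -0.06 and its ischemia levels -0.51, -0.88, -0.49 and -0.71. Every ischemia array lay below every control, and the difference was -0.83 (SE 0.13, adjusted p = 0.151 in limma).

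In several of these features other probes of the same interval gave another picture. At chr8:125031410-125075960_F, 20.9 kb from Cdt1, a DNA replication licensing factor, the levels were 1.59, 1.63, 1.5 and 1.39 in controls and 1.07, 0.94, 0.87 and 1.02 in ischemia. The difference was -0.55 (SE 0.07, adjusted p = 0.151 in limma), while the other kept probe of the interval had 0.65. The reverse strand of this interval had -0.03. At chr16:40592137-40594284_F the values were -0.60 and, for the other kept probe, 0.05.

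The interval chr12:110944403-110988678_F covers Mirg, a noncoding RNA gene of the imprinted Dlk1-Dio3 region that hosts microRNAs. Control levels were 1.15, 1.07, 0.91 and 0.85 and ischemia levels 0.51, 0.39, 0.46 and 0.44. These groups did not overlap, and the difference was -0.54 (SE 0.08, adjusted p = 0.151 in limma). The 2 other kept probes had 0.09 and 0.32, and the probe named Mirg had 0.03.

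Among the rest, chr5:149947200-149979950_F had 1.59, 1.78, 1.82 and 1.56 in controls and 1.20, 1.02, 1.07 and 1.21 in ischemia, a difference of -0.56 (SE 0.08). On the X chromosome, chrX:20555593-20591971_R had -0.53 and its opposite strand -0.41. The G-rich probe of chr15:100908725-100908912_F had -0.57. In each of these the ischemia arrays of the first-named strand lay below all controls.

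The 10 higher features with the smallest p had differences between 0.19 and 0.65, and none passed the adjusted test. At chr17:95150800-95180650_R the levels were -0.29, -0.05, -0.02 and -0.06 in controls and 0.08, 0.38, 0.30 and 0.28 in ischemia. The groups did not overlap, and the difference was 0.37 (SE 0.09, adjusted p = 0.243 in limma). Its other 2 kept probes had -0.01 and 0.09. The single kept probe of chr7:71093563-71095094_F, on the side of the zinc-finger gene Klf13, had 3.07, 2.97, 3.12 and 2.91 in controls and 3.33, 3.36, 3.52 and 3.15 in ischemia, a difference of 0.33 (SE 0.09).

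At chr4:124127144-124334840_R all 5 kept probes had differences above 0. The brightest had 0.99, 1.24, 0.87 and 0.95 in controls and 1.26, 1.56, 1.24 and 1.27 in ischemia. The lowest ischemia array lay just above the highest control. The difference was 0.32 (SE 0.10, adjusted p = 0.345 in limma), and the 4 other kept probes lay between 0.19 and 0.35.

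The interval chrX:148720661-148763177_R covers Kantr, a noncoding RNA expressed in neural tissue. Its levels were -2.94, -2.81, -2.56 and -2.77 in controls and -2.36, -2.57, -2.36 and -2.44 in ischemia, so the groups overlapped. The difference was 0.34, while the other 2 kept probes had -0.16 and -0.11 and the probe named Kantr had 0.08. Of the remaining higher features, 2 contain a probe of a gene on the other strand, 4632427E13Rik (0.29) and Pura (0.26), and 4 lie beside Tmcc2 (0.25), Duxbl2 (0.39), Zfp609 (0.19) and Ube2e3 (0.65). The Ube2e3 feature passed the background test in 2 controls, and its difference was 0.19 with the normexp background correction.

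**Figure D4:**
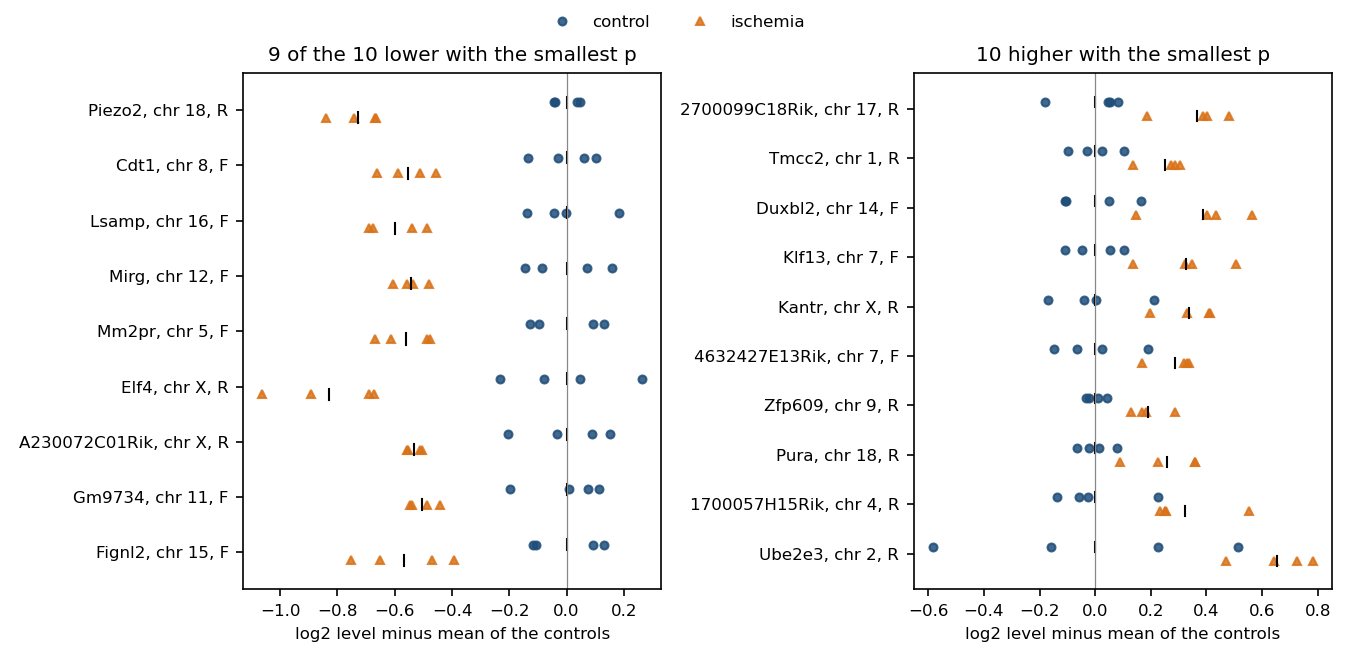
Log2 level minus the control mean on each array (points; bars are group means) for 9 of the 10 lower and the 10 higher features with the smallest p, each named by the gene of its nearest named probe, chromosome and strand. Differences of the lower features lie between -0.83 and -0.50 and those of the higher ones between 0.19 and 0.65; the feature named Piezo2 alone passed the adjusted test.

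Different probes of a feature often differed in sign. Of 1032 features with at least 2 kept probes, 531 had all differences on the same side of 0, 411 below and 120 above. The median range between probes of a feature was 0.20. For features lower at unadjusted p under 0.05, 212 of their 294 other kept probes were below 0, with a median of -0.12, and 63 were lower at that threshold in limma. By their chosen probes, 71.4% of all 2249 features were below 0. That share is not given here for the 2011 other kept probes, whose median was -0.05. The 212 of 294 therefore have no base of their own kind. Of all 4260 kept probes, 12.2% were lower at that threshold. For higher features, 39 of 55 other probes were above 0, with a median of 0.17 and likewise no such base.

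Of the 8 brightest features 7 are given, as a description. At chr14:78924115-78938125_F, 10.8 kb from Akap11, the levels were 8.82, 8.87, 8.95 and 8.56 in controls and 8.59, 8.50, 8.51 and 8.51 in ischemia. The groups overlapped through control 4. The C-rich probes of chr12:73838608-73862621 on both strands, of chr17:39982023-39983277_F and of chr6:83368261-83407280_F had differences between -0.32 and -0.24. The A- and T-rich probe of chr11:22681800-22707775_R had -0.01 and that of chr7:108209996-108216032_R, with 50% G and C, had -0.07. No spot was saturated.

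Of the kept features, 4 were well above background on all arrays of 1 group and on none of the other. Each therefore passed the filter only through the group where it was high, so the contrast is a description and no test. How often this occurred over the whole array is not given here. For chr11:120046656-120050065_F, which overlaps Gm9734, the control levels were -3.11, -3.15, -3.22 and -3.42 and the ischemia levels -3.71, -3.77, -3.67 and -3.77. This was at least 1.41-fold lower in ischemia, where the bright group's mean is set against each dim array's own value or, if higher, the lowest one well above background there. In the same way chr1:64686823-64728598_F was at least 1.37-fold lower, and chrX:96586066-96586407_F at least 1.30-fold higher in ischemia. For chr12:106572079-106575298_R, 45.6 kb from the noncoding RNA gene Tunar, the dim arrays were themselves above that lowest value, and the measured difference was -0.45. These folds hold for the processed signal alone and are no strict bounds: with normexp the differences were -0.23, -0.35, 0.11 and -0.25 in the order given. All 4 rest on 1 kept probe each near the detection limit, and none passed the adjusted test in limma.

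The 6 features with the widest range over the arrays each owed it to a single array. At chr7:106529142-106529752_R ischemia 1 had 0.14, and the 7 others lay between -3.99 and -3.49. At chr17:45524689-45525320_R ischemia 2 had 1.06, and the others lay between -3.05 and -2.63. Its 2 other kept probes had group differences of 0.09 and 0.24, against 0.94 for the wide one. At chr17:6455677-6476228_F, chr8:93337794-93348869_F, chr5:92556322-92558910_F and chr11:59217249-59217785_R the high arrays were ischemia 1, ischemia 2, ischemia 3 and control 3.

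**Figure D5:**
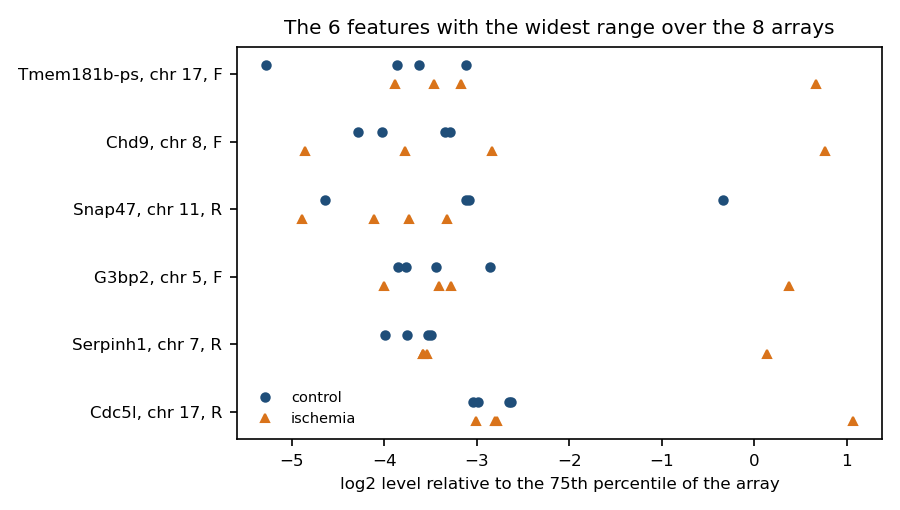
Log2 level relative to the array's 75th percentile on each of the 8 arrays for the 6 position-named features with the widest range, each named by the gene of its nearest named probe, chromosome and strand. In every feature a single array lies apart, at -0.34 to 1.06, and it is not the same array throughout.

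Probes on both strands were present for 1067 positions. Both strands were kept at 373, a single strand at 463 (213 forward, 250 reverse) and neither at 231. At 202 positions one strand was well above background on all 8 arrays and the other on 0. At 264 both strands were detected on all 8. Where both were kept, the differences were both below 0 at 196 positions and both above 0 at 23. As 71.4% of all kept features were below 0, many positions would share a sign without any link between the strands.

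At 64 of the 373 positions (17.2%) the chosen probes of the strands shared at least 20 bases as reverse complements, so both report on the same stretch of genome. Capitals mark the shared bases in 3 such pairs, at the noncoding RNA gene Pantr1 on chromosome 1, at the microRNA host Mir17hg on chromosome 14 and beside Yy1 on chromosome 12.
chr1:42689799-42749799_F: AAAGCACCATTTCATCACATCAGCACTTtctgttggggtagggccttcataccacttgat
chr1:42689799-42749799_R: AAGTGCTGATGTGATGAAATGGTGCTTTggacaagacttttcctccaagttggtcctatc
chr14:115423660-115463160_F: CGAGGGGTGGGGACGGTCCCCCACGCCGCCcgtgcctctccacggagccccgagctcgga
chr14:115423660-115463160_R: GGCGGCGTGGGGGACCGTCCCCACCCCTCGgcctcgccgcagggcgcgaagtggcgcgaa
chr12:110003268-110030953_F: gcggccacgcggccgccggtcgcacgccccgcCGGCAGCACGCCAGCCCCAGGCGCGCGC
chr12:110003268-110030953_R: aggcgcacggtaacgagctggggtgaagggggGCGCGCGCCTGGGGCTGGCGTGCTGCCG

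Both probes of the Pantr1 position, which share 28 bases, were well above background on all 8 arrays. On the reverse strand, that of Pantr1, the levels were 5.97, 6.02, 6.13 and 5.85 in controls and 5.87, 6.02, 5.90 and 5.84 in ischemia. On the forward strand they were 0.51, 0.48, 0.71 and 0.23 against 0.25, 0.50, 0.39 and 0.35. The groups overlapped on both strands, with differences of -0.09 and -0.11. Beside Yy1, which encodes a zinc-finger transcription factor, the forward strand had 4.48, 4.57, 4.61 and 4.46 in controls and 4.15, 4.14, 4.18 and 4.29 in ischemia, without overlap, and the reverse strand a difference of -0.05. Where the probes shared 20 bases or more, the differences of the strands had the same sign at 41 of 64 positions. Over all positions with both strands kept it was 219 of 373, so the same limit holds.

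Of the positions detected on a single strand, the 6 brightest were also described. The reverse strand of chr7:50509139-50526856_R, 24.9 kb from the zinc-finger gene Zfp715, had 4.98, 5.03, 5.06 and 4.74 in controls and 4.54, 4.50, 4.54 and 4.39 in ischemia. The groups did not overlap, and the difference was -0.46, with -0.29 for its other kept probe. The other 5, whose nearest named probes belong to Akap13, Zswim6, Rcor3, Tenm2 and Prkce, had differences between -0.28 and -0.03.

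The genes beside the features had no median shift. Of the kept features, 1745 had a nearest named gene that was itself measured, 934 distinct genes in all. The median difference was -0.00 over these genes and -0.10 over the features. Of the genes 6.85% were lower and 2.89% higher at unadjusted p under 0.05 in limma, near the 7.64% and 3.25% of the whole array. Features with a named probe inside the interval and features with none within 50 kb had medians of -0.11 each.

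Developmental transcription factors, which set the identity of cortical neurons and progenitors, often have noncoding transcripts beside them. Of 74 such genes listed, 44 features had a listed gene nearest and 26 were kept, beside 13 genes (among them Eomes, Id2, Irx2, Nfib, Nr2f1, Nr2f2, Rorb, Sox2, Sox4, Tcf4, Tshz3 and Zfhx3). Their median difference was -0.04, 18 were below 0, and they ranged from -0.50 to 0.99. At unadjusted p under 0.05 in limma 3 were lower (11.5%) and 2 higher (7.69%). The whole array had 7.64% and 3.25%, and all kept position-named features had 15.5% and 1.87%. None of the 26 passed after adjustment.

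Beside Nfib, a nuclear factor of glial and deep-layer development, chr4:82156098-82196298_F had -0.88, -1.05, -1.01 and -1.23 in controls and -1.32, -1.31, -1.64 and -1.64 in ischemia. The groups did not overlap. The difference was -0.43 (SE 0.11, adjusted p = 0.269 in limma), its other kept probe had -0.55 and Nfib itself 0.15. Beside the orphan nuclear receptor gene Nr2f1, the overlapping intervals chr13:78370478-78371404_F and chr13:78341244-78374486_F had 0.18 and 0.29, 2 further features had 0.26 and 0.99, and Nr2f1 had 0.13. Beside Eomes, a regulator of intermediate progenitors, the forward strand of chr9:118291593-118324230 had -0.19 and its reverse strand -0.50. The feature beside Nr2f2 had -0.25, and the 7 beside Sox4 lay between -0.24 and 0.05.

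Intervals that contain a named noncoding RNA of a list of 29 numbered 34 on the array, of which 24 were kept. Their median difference was -0.09, 21 were below 0, and they ranged from -0.61 to 0.15. The lowest lay opposite Snhg3, a host gene of small nucleolar RNAs, at chr4:131905739-131910814_F. Its levels were 5.18, 5.10, 5.33 and 5.25 in controls and 4.62, 4.24, 4.34 and 5.20 in ischemia. Ischemia 4 lay among the controls, and the groups overlapped. The difference was -0.61 and that of the other kept probe -0.76, while Snhg3 had -0.07.

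The nuclear RNAs Malat1 and Neat1 lie on the reverse strand of chromosome 19, and the brightest position-named probe on the forward strand of their shared interval had 1.09, 1.25, 1.15 and 0.97 in controls and 1.13, 0.97, 0.89 and 1.04 in ischemia. The groups overlapped, and the difference was -0.11. The 4 other kept probes of that strand lay between -0.11 and 0.68. The reverse strand had -0.00, Malat1 0.02 and Neat1 -0.11. The features over Dleu2, Mir17hg, Airn, Gas5, Jpx and Oip5os1 lay between -0.53 and 0.15.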

How the data were processed

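Each of the 8 samples was hybridised to a 1-colour Agilent 8x60K mouse array labelled with Cy3 from 50 ng of RNA. Per the file headers, the authors read the scans with Agilent Feature Extraction 10.7.3.1, and positions use mm9. The deposited intensities are the processed signal, which that software corrects for background, and the mean and local background signals, used for an alternative. The deposited value table is a ratio, the processed signal over a constant per array, used as an alternative. The meaning of this constant is not stated in the labels or headers.

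Control spots and 26 probes with outlier flags were left out. Values are log2 of the processed signal minus log2 of the array's 75th percentile. Of the kept probes of a gene or feature the one with the highest mean was tested with limma 3.58.1 (lmFit, eBayes) in R 4.3.3, at a threshold of 0.05 after the Benjamini-Hochberg procedure across every gene and feature tested. This code was checked on simulated data. The labels do not name litters, so p-values measure the spread between these pups.

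The members and lists were chosen with earlier results of these data known. Features named are those past the adjusted threshold, the 10 higher and 10 lower with the smallest p, the 8 brightest, those detected in all arrays of 1 group and none of the other, the 6 of widest range, 4 positions with both strands kept and the smallest p, the 6 brightest on a single strand, 6 beside listed transcription factors and all that contain a listed noncoding RNA. Gene names were updated with RefSeq (GRCm38.p6), for names only. The number of arrays limits the precision. Some items these rules name are not reported here.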

Additional observations from a re-analysis of the deposited data

Results flagged for a closer look

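In 11 of 156 sets of 4 arrays a single array lay far from the other 3, judged by its gap to the nearest array over the whole range against Dixon's critical value. Chance gives about 1 in 20, or 7.8 sets, if the sets are independent and unselected. The sets here include features chosen for a wide range over the arrays and features that overlap, so 7.8 is a rough guide only. The ratio was 0.987 for chr7:106529142-106529752_R, where ischemia 1 was high at 0.14, and 0.945 for chr17:45524689-45525320_R, where ischemia 2 was high at 1.06. It was 0.843 for chr17:6455677-6476228_F, high in ischemia 1 at 0.67, and 0.835 for chr5:92556322-92558910_F, high in ischemia 3 at 0.38. For chr4:124127144-124334840_R it was 0.928, with ischemia 2 high at 1.56, and for chr12:110003268-110030953_R it was 0.854, with control 2 high at 2.53.

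Low arrays set the ratio of 0.859 for chr17:95150800-95180650_R (control 1 at -0.29), of 0.903 for chr7:99879368-99889978_F (ischemia 4 at -1.49), of 0.871 for chr11:35805295-35817263_F (ischemia 2 at 5.35) and of 0.840 for chr17:12990484-13018375_R, opposite Airn (ischemia 3 at -3.73). The median deviation of all position-named features from the control mean gave 0.836, with control 4 low at -0.12 and the other controls between 0.02 and 0.05.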

How the results depend on the processing

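The median difference of the position-named features was below 0 in all 21 alternatives, from -0.14 to -0.05. The single feature lower at an adjusted p under 0.05 in limma gave a count of 0 with normexp, the array median as the scale, quantile normalization, the filter on all 8 arrays, no filter, every probe on its own, the covariate and the centring by G and C content (these last chosen after seeing the data), and with each array left out in turn (0 to 0). Trended and robust variance gave 6, without chr18:63525907-63526504_R, where 20 of 19748 passed on the whole array. At unadjusted p under 0.05 in limma, 27 of 2249 features were higher with normexp, against 42 of 2249 in the main fit. Without a filter 67 of 4607 were higher, and with every probe on its own 98 of 4260 probes, so these counts have larger bases. With the covariate 178 were lower (7.91%, against 4.81% of the whole array), where the main fit had 348 (15.5%, against 7.64%). Leaving out an array gave 258 to 457 lower and 33 to 47 higher, the 457 without control 4, and medians of -0.14 to -0.08. The share lower was then 11.5% to 20.3%, against 5.66% to 8.94% of the whole array.

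With the replicate number as a block, 0 passed the adjusted test, 411 were lower (18.3%, against 8.53% of the whole array) and 63 higher at unadjusted p under 0.05. Deviations of same-numbered arrays correlated at 0.08, -0.06, 0.29 and 0.39. Controls 1 and 2 correlated best with ischemia 2 and 1, and controls 3 and 4 with ischemia 3 and 4. Whether the numbers pair the samples is therefore not settled. Requiring every probe of a feature left 572 features. Asking for 0 of 8 arrays on the other strand left 240 positions in place of 463, and extending intervals by 5 kb put a named probe inside 883, where 506 had one and 330 had one on the same strand. Of 1580 values of the 76 features named, 1551 kept their direction or call or moved by less than 1 SD, 0 reversed a call, 5 passed newly, 17 no longer passed and 7 moved further; 23 of the 47 features described without a test changed sign in some setting. The causes were not tested. Signals near background, where 431 features have at best 4 to 7 detected arrays, limit what can be seen.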
